A study of Mus musculus with 6 samples.

Results

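The genes described here encode RNA polymerase II and the factors that assemble with it at promoters, measured in the heads of mouse embryos at the mid-gestation stage E10.5. Members were chosen by symbol: the RNA polymerase II subunit genes Polr2a to Polr2l, every gene named Taf with a number, the genes of TFIIB, TFIIE, TFIIF and TFIIH named Gtf2, every gene named Med with a number, and Tbp, Tbpl1 and Tbpl2. This gave 78 genes of the 19938 that had a probe set with a single gene symbol, and the brightest such probe set over the 6 heads stood for each gene, without any filter on brightness. The TFIIA genes were left out of the members and are given only as partners.

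There were 3 heads labelled Tasp1 knockout (Taspase1 knock-out, from intercrossed heterozygous Tasp1+/- parents) and 3 labelled wild type (WT), all on the C57Bl6 background. Each is a separate embryo by its label, and the tissue dissected was the prosencephalon and mesencephalon (forebrain and midbrain). Total RNA (100 ng per head) was read on 1 Affymetrix array per head. By the labels, the arrays compare transcript levels with and without Taspase1. This protease has substrates that include the TFIIA precursor (Gtf2a1) and histone methyltransferases of the MLL family. Signals are on the log2 scale, as deposited, and every difference is the KO-labelled mean minus the WT-labelled mean. Signals of different probe sets are not on a common scale, so genes are compared by their differences. Where signal levels are used, as in a brightness cut for markers and dim members, they are a rough guide.

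RNA polymerase II makes all messenger RNAs. At a promoter, TFIID, built from the TATA-binding protein TBP and TBP-associated factors (TAFs), binds the core promoter, and TFIIA stabilises it there. TFIIB and TFIIF bring in the polymerase, TFIIE and TFIIH open the DNA, and Mediator links this assembly to transcription factors bound at enhancers.

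The Tasp1 signal read 8.63, 8.63 and 8.50 in the KO-labelled heads, against 8.10, 8.45 and 8.49 in the WT-labelled heads. It was thus not lower in the KO-labelled heads, and the sources used here do not say whether its probe set lies in the deleted part, so this signal does not check the labels. The arrays correlated with each other at 0.996 to 0.998 across genes. On the first principal component the most distant head was WT 1. Xist read 12.3 in WT 2 and between 4.90 and 5.24 elsewhere, and WT 2 alone was low in Y-linked signals, so sex was not balanced. Of the forebrain and midbrain markers Otx2, Sox2, Lhx2, Emx2, Pax6, Six3 and En1, 7 of 7 lay above a log2 signal of 7.06, below which the dimmest 40% of probe sets fall, against 1 of 3 hindbrain markers. Markers of erythroid cells, endothelium, mesenchyme and neural crest, macrophages and surface ectoderm were above it as well. Of the 25 measured markers 0 passed a limma adjusted p of 0.05, and 7 were at an unadjusted p under 0.05, against 6.28% of all genes. Lower among them were the forebrain genes Lhx2 and Emx2 (−0.33 and −0.32), the neural crest gene Sox10 (−0.38), the macrophage gene C1qb (−0.30) and the erythroid gene Hbb-bh1 (−0.21). Higher were the mesenchyme gene Dcn (+0.36) and the ectoderm gene Cdh1 (+0.16). In the same lists, Twist1 and Prrx1 of the mesenchyme differed by +0.002 and +0.05, and Epcam and Krt8 of the ectoderm by −0.11 and −0.007. The erythroid genes Hbb-y and Alas2 differed by −0.0005 and −0.13, and the macrophage gene Csf1r by −0.07. Otx2, Sox2 and En1 of the forebrain and midbrain list differed by +0.04, +0.03 and +0.08, and Six3 and Pax6 by −0.10 and −0.06. The median of that list was −0.06. The mean signal of the forebrain and midbrain list was 9.87 to 9.93 in KO-labelled heads, against 9.87 to 10.1 in WT-labelled heads, and the part of these markers in the results was not tested. In bulk forebrain and midbrain tissue, fewer cells of a type and less RNA per cell cannot be told apart.

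None of the 78 members passed the test over all genes (limma, Benjamini-Hochberg adjusted p under 0.05), where 2 of 19938 genes did (0.01%), Caprin2 and Mir9-1. At an unadjusted p under 0.05 there were 5 members (6.41%), against 6.28% of all genes. Polr2a and Taf5 were the 2 higher in KO-labelled heads (background 2.16%), and Taf6, Polr2l and Med21 the 3 lower (background 4.12%). With the arrays centred on their medians the split was 3 higher and 2 lower. The KO-labelled and WT-labelled values did not overlap in 8 members (10.3%), against 11.1% of all genes: 3 higher (background 4.07%) and 5 lower (background 6.99%). Besides the 5 just named these were Med13, Med17 and Med19. The shares of the machinery's genes thus lay near those of all genes.

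Most members differed by little. The median difference was −0.03, against −0.01 over all genes, and the members ran from −0.17 (Taf6) to +0.23 (Polr2a). In 64 of 78 members the difference was smaller than 0.1 in either direction (82.1%, against 76.3% of all genes). The 95% confidence interval lay wholly within a 1.25-fold change in either direction for 74 of 78 members (94.9%, against 86.2% of all genes). The exceptions were Polr2a (0.14 to 0.33), Polr2k (−0.36 to 0.03), Taf7 (−0.33 to 0.06) and Med12l (−0.33 to 0.06). Of the members, 51 were lower and 27 higher in KO-labelled heads (65.4% lower, against 57.2% of all genes). This split moved with single heads and with the scaling. Without WT 1, 36 were lower and 42 higher and the median was +0.007. The share of lower members was 59.0% without KO 1 and 56.4% without KO 3, against 57.4% and 54.7% of all genes in the same fits. Without KO 2 and without WT 2 the share of lower members was 69.2% each, against 56.6% and 56.4% of all genes. Without WT 3 it was 60.3%, against 57.2%. With array quality weights it was 53.8%, against 55.9% of all genes. With median centring it was 55.1%, against 46.1%, and with quantile normalization 64.1%, against 51.2%.

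**Figure D1:**
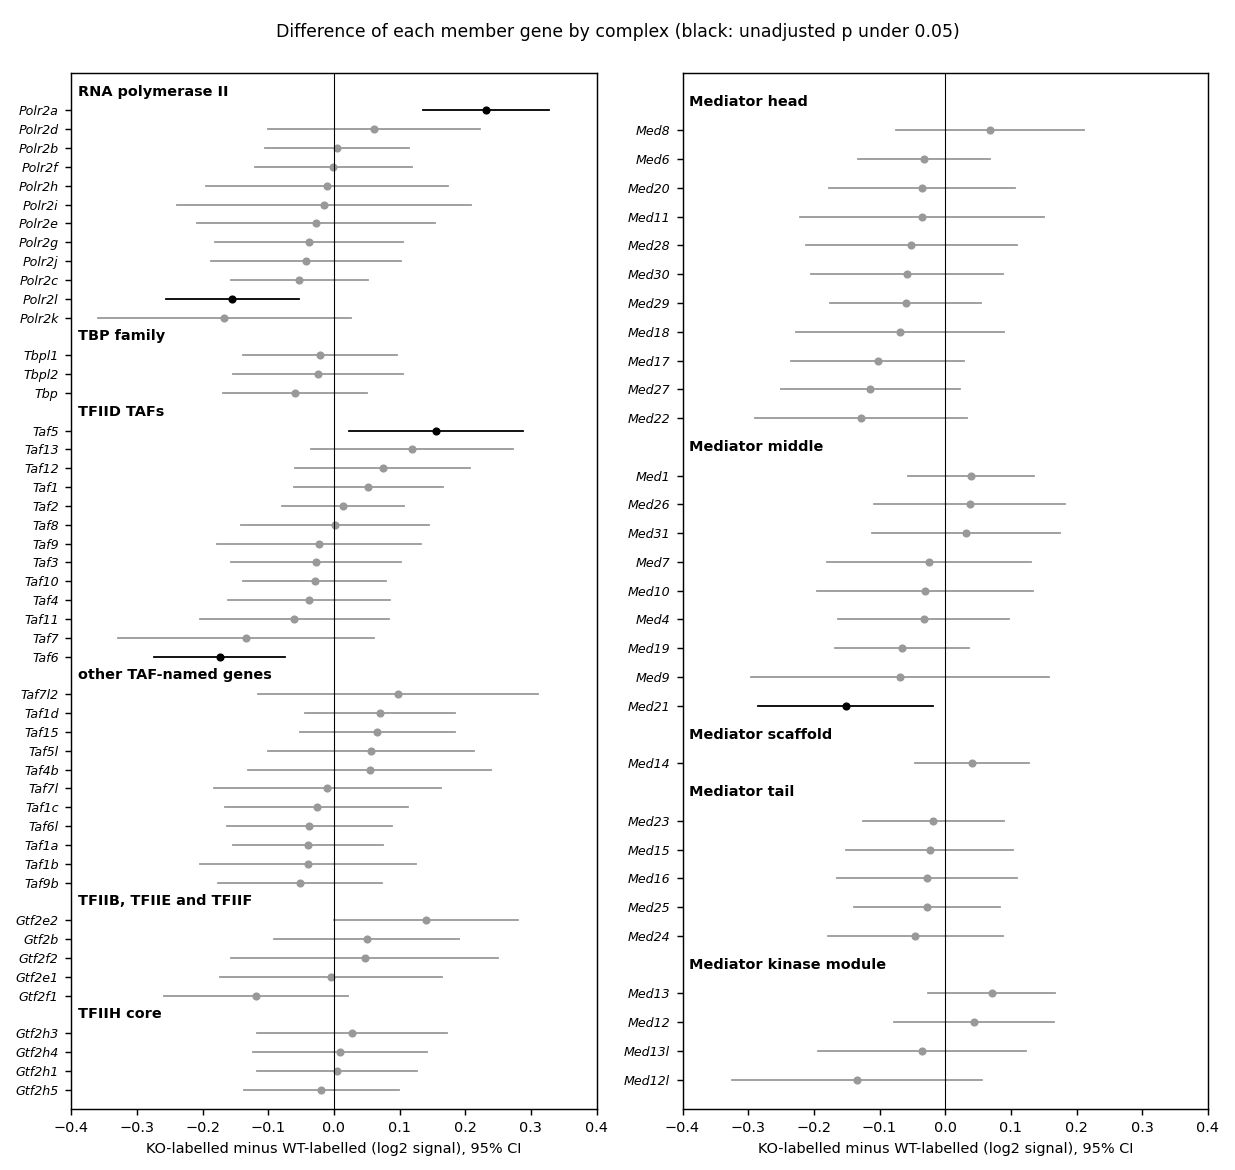
Difference between KO-labelled and WT-labelled heads (log2 signal, x axis) for each of the 78 member genes, grouped by complex, with 95% confidence intervals from limma; black marks an unadjusted p under 0.05. Polr2a at +0.23 stands at one end and Taf6 at −0.17 at the other, and most intervals cross 0.

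The promoters of the 3 members with the smallest p-values, Polr2a, Taf6 and Polr2l, are shown because core promoters are what this machinery binds. The sequences are from RefSeq on build GRCm38.p6, run from 250 bases before to 50 bases after the annotated start, and are written 5′ to 3′ along the gene. They lie on the minus strand at chr11:69758584-69758883 (Polr2a), chr5:138187177-138187476 (Taf6, 1 of 2 listed starts) and chr7:141475104-141475403 (Polr2l). Capitals mark TATAAA, the letters of a TATA box, GGGCGG, the core of a GC box, CCAAT, and AAGATGGC, letters of a YY1 site. Each was searched on both strands, and no marked stretches overlap.
Polr2a: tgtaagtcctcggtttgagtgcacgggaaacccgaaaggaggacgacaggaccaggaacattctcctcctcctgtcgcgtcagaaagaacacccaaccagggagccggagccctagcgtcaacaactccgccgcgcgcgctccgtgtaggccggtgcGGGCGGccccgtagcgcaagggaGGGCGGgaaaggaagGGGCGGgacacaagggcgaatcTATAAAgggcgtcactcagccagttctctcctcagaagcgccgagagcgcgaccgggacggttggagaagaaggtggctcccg
Taf6: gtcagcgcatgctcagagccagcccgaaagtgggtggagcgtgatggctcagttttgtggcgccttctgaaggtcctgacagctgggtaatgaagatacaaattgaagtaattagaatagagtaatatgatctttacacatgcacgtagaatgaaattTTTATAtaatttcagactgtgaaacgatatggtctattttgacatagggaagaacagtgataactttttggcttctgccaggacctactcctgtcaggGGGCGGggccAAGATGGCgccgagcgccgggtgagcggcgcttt
Polr2l: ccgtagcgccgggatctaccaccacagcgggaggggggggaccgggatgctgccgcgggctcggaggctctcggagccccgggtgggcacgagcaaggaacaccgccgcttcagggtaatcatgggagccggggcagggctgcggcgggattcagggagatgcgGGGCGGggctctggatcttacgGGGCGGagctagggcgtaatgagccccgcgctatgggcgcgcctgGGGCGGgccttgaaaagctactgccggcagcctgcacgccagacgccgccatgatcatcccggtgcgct
In Polr2a, TATAAA began 33 bases before the start. For the 8 members with TATAAA on the sense strand, the most upstream match of each promoter was located. Besides that of Polr2a, only the match of Taf13, at 32 bases, lay between 25 and 35 bases before a start. Further matches downstream in the same promoter were not located. Promoters were matched for 67 of the 78 members. TATAAA was in 11 of the 67 (16.4%), against 15.7% of all 27025 genes with a promoter listed. GGGCGG was in 47 (70.1%, against 38.2%), CCAAT in 24 (35.8%, against 41.1%) and AAGATGGC, searched after it was seen in Taf6, in 8 (11.9%, against 3.19%). Taf6 is among those 8, so the AAGATGGC share is partly set by that choice. All of these counts are matches of letters and not shown to be bound sites. The 27025 genes outnumber the 19938 with a single-symbol probe set, so they include genes not measured here. The shares were not matched for signal.

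The 12 polymerase subunit genes had 3 higher and 9 lower differences, and that of Polr2a was the largest of them. Their median of −0.02 was +0.03 without WT 1 and +0.01 without KO 1. Polr2a encodes the largest, catalytic subunit, whose C-terminal repeats are phosphorylated during the transcription cycle. Its signal (probe set 10387588, chromosome 11) read 11.87, 11.89 and 11.83 in the KO-labelled heads, against 11.56, 11.66 and 11.68 in the WT-labelled heads. Every KO-labelled head was above every WT-labelled head, and WT 1 was the lowest. The means were 11.86 ± 0.03 in the KO-labelled heads, against 11.63 ± 0.07 in those labelled WT (n = 3 each, SD), 1.17 times as high, a difference of +0.23 (SE 0.04, limma adjusted p = 0.231). An exact permutation test of 3 against 3 heads cannot give a two-sided p below 0.1. Over the alternatives, each left-out head included, the Polr2a difference ran from 0.193 to 0.263 and its limma adjusted p from 0.132 to 0.93.

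Polr2b, which encodes the other large subunit of the active centre, had 10.71 ± 0.08 in the KO-labelled heads, against 10.70 ± 0.02 in those labelled WT (n = 3 each, SD). Its difference had a 95% confidence interval of −0.10 to 0.11. The assembly subunit gene Polr2c differed by −0.05, and Polr2i and Polr2j by −0.02 and −0.04. A second, dimmer Polr2c probe set, 10574242, differed by −0.14, and its groups did not overlap. The stalk genes Polr2d and Polr2g, whose products bind near the RNA exit, differed by +0.06 and −0.04. None of these passed.

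Polr2e, Polr2f, Polr2h, Polr2k and Polr2l encode the subunits that polymerases I, II and III share, and 5 of 5 were lower in KO-labelled heads, with a median of −0.03. Polr2l (probe set 10487267) read 10.82, 10.94 and 10.90 in the KO-labelled heads, against 11.05, 11.06 and 11.01 in the WT-labelled heads. The groups did not overlap, and the means were 10.89 ± 0.06 in the KO-labelled heads, against 11.04 ± 0.03 in those labelled WT (n = 3 each, SD; 0.90 times, SE 0.05, limma adjusted p = 0.605). A second Polr2l probe set, 10569200, differed by −0.12 and its groups did not overlap either. The limma unadjusted p of Polr2l stayed under 0.05 with each head left out in turn, with differences from −0.18 to −0.121. Polr2k read 7.57, 7.52 and 7.39 in the KO-labelled heads, against 7.82, 7.57 and 7.60 in the WT-labelled heads (−0.17, limma adjusted p = 0.835). A probe set annotated to both Polr2k and LOC100862456 averaged 9.67 in the KO-labelled heads, against 9.65 in those labelled WT, a difference of +0.01. Polr2f had 12.09 ± 0.07 in the KO-labelled heads, against 12.09 ± 0.10 in those labelled WT (n = 3 each, SD). The head that moved these 5 genes most was WT 1, at a mean deviation of +0.15 from their means over 6 heads, where the other heads lay between −0.10 and 0.006. Without WT 1, 3 of the 5 shared subunit genes were higher and 2 lower (median +0.04), and without KO 1 likewise (median +0.03). With array quality weights 3 were higher, with median centring 2 and with quantile normalization 1. All 5 stayed lower without KO 2, KO 3 or WT 2 (medians −0.0295, −0.0831 and −0.0985). Without WT 3, 4 were lower (median −0.0636).

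**Figure D2:**
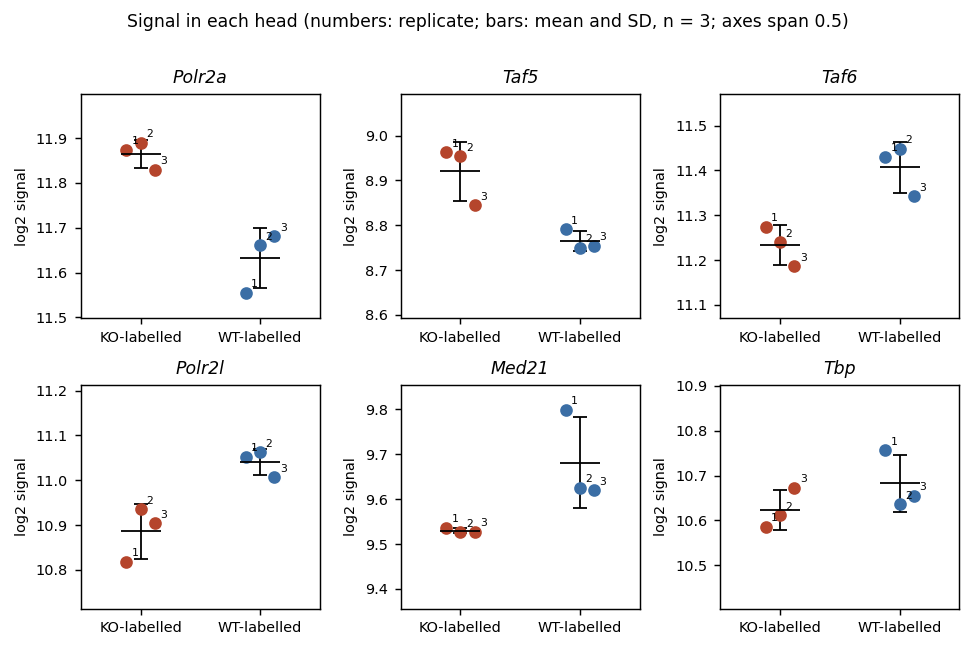
Log2 signal (y axis, each panel spanning 0.5) of the 5 members with an unadjusted p under 0.05 and of Tbp in each KO-labelled and WT-labelled head; numbers are replicates, bars the mean and SD of 3 heads. The groups are separate for Polr2a, Taf5, Taf6, Polr2l and Med21 and overlap for Tbp.

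Tbp and its relatives did not pass. Tbp, whose product is the TATA-binding subunit, read 10.59, 10.61 and 10.67 in the KO-labelled heads, against 10.76, 10.64 and 10.66 in the WT-labelled heads. The groups overlapped, and the difference of −0.06 had a 95% confidence interval of −0.17 to 0.05 (limma adjusted p = 0.899). Tbpl1, a TBP-like factor that binds TFIIA and acts in male germ cells, differed by −0.02 (−0.14 to 0.10). Tbpl2, an oocyte TBP relative, was dim, at 3.85 ± 0.03 in the KO-labelled heads, against 3.87 ± 0.05 in those labelled WT (n = 3 each, SD), and lay below the log2 signal of 7.06.

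The 13 TAFs of TFIID divided into 6 higher and 7 lower, and their median of −0.02 became +0.01 without WT 1 and +0.01 without WT 3. Taf6 and Taf5 lay at the ends. Taf6 encodes a histone-fold subunit that pairs with TAF9 in the core of TFIID. Its signal (probe set 10534990, chromosome 5) read 11.27, 11.24 and 11.19 in the KO-labelled heads, against 11.43, 11.45 and 11.34 in the WT-labelled heads. Every KO-labelled head was below every WT-labelled head. The means were 11.23 ± 0.04 in the KO-labelled heads, against 11.41 ± 0.06 in those labelled WT (n = 3 each, SD), 0.89 times (difference −0.17, SE 0.05, limma adjusted p = 0.456). The Taf6 difference ran from −0.206 to −0.15 over all alternatives, and its limma unadjusted p was under 0.05 in each of them.

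Taf5, which encodes the WD-repeat scaffold subunit, read 8.96, 8.95 and 8.84 in the KO-labelled heads, against 8.79, 8.75 and 8.75 in the WT-labelled heads. The groups were separate, with KO 3 nearest to the WT-labelled heads. Its means were 8.92 ± 0.07 in the KO-labelled heads, against 8.77 ± 0.02 in those labelled WT (n = 3 each, SD), 1.11 times as high (SE 0.06, limma adjusted p = 0.773). The limma unadjusted p of Taf5 was 0.025, and it was above 0.05 without KO 1 (0.0868), KO 2 (0.0848), WT 2 (0.0633) or WT 3 (0.0601). TAF5 and TAF6 belong to the same core of TFIID, and the differences of their genes had opposite signs.

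Other TFIID genes lay closer to 0. Taf1, whose product is the largest subunit, differed by +0.05, Taf4, a histone-fold partner of TAF12, by −0.04 and Taf9 by −0.02. Taf13 differed by +0.12 and Taf7 by −0.13. A second, dimmer Taf13 probe set, 10495340, differed by +0.04, and its groups overlapped. Taf7 averaged 7.51 ± 0.13 in the KO-labelled heads, against 7.65 ± 0.12 in those labelled WT (n = 3 each, SD). Neither Taf13 nor Taf7 passed (limma adjusted p = 0.858 and 0.87). A probe set annotated to both Ak6 and Taf9 differed by +0.03.

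The other TAF-named genes act elsewhere or in particular cells, and 0 of 11 had an unadjusted p under 0.05 in limma. Their median was −0.01, and +0.01 with the arrays centred on their medians. Taf5l and Taf6l, which encode the counterparts of TAF5 and TAF6 in the coactivator complex SAGA, differed by +0.06 (−0.10 to 0.21) and −0.04 (−0.16 to 0.09). Taf4b and Taf9b, paralogs of TFIID subunits, differed by +0.05 and −0.05, and the germ cell paralogs Taf7l and Taf7l2 were dim, with Taf7l at 4.63 ± 0.13 in the KO-labelled heads, against 4.64 ± 0.04 in those labelled WT (n = 3 each, SD). Taf1a, Taf1b and Taf1c, of the polymerase I factor SL1, differed by −0.04, −0.04 and −0.03. Taf1d, also of SL1, had 9 probe sets, 7 higher and 2 lower, from −0.03 to +0.19, with 4 of them holding the same values. Taf15, which encodes an RNA-binding protein, differed by +0.07.

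TFIIB, TFIIE and TFIIF were covered by 5 genes, 3 higher and 2 lower, with a median of +0.05 that was −0.002 without WT 2. Gtf2e2, the gene of the smaller TFIIE subunit, was the member just outside an unadjusted p of 0.05 in limma (0.0507), where Med21 at 0.0292 was the last inside. Its signal was 9.59, 9.70 and 9.71 in the KO-labelled heads, against 9.53, 9.43 and 9.63 in the WT-labelled heads. The groups overlapped, through KO 1 and WT 3 (difference +0.14, SE 0.06, limma adjusted p = 0.799). The limma unadjusted p of Gtf2e2 was under 0.05 in 5 of 12 fits of all 6 heads and in 2 of 6 with a head left out. Gtf2e1, the larger TFIIE subunit's gene, had 9.08 ± 0.14 in the KO-labelled heads, against 9.08 ± 0.07 in those labelled WT (n = 3 each, SD). Gtf2f1 differed by −0.12 (limma adjusted p = 0.843), its TFIIF partner Gtf2f2 by +0.05 and Gtf2b, the TFIIB gene, by +0.05.

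The 4 measured TFIIH core genes lay close to 0, from −0.02 (Gtf2h5, which encodes the small stabilising subunit) to +0.03 (Gtf2h3). Their 95% confidence intervals all lay within a 1.25-fold change in either direction. Gtf2h2 had no probe set with a single symbol.

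Mediator was covered by 30 genes, of which 23 were lower and 7 higher, with a median of −0.03; without WT 1, 16 were lower and 14 higher. In the head module, which contacts the polymerase, 10 of 11 were lower, and 8 of 11 without WT 1 (median −0.06, range over left-out heads −0.107 to −0.0432). Med22 at −0.13 and Med27 at −0.11, both on chromosome 2, were the lowest, and neither passed (limma adjusted p = 0.854 and 0.846). Med17, the scaffold of the head, read 9.08, 8.97 and 9.10 in the KO-labelled heads, against 9.12, 9.14 and 9.19 in the WT-labelled heads, without overlap (−0.10, limma adjusted p = 0.857). Med6 and Med18, also of the head, differed by −0.03 and −0.07, and Med8 by +0.07.

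In the middle module 6 of 9 genes were lower (median −0.03, and +0.01 without WT 1). Med21, whose product forms the hinge of that module with MED7, read 9.54, 9.53 and 9.53 in the KO-labelled heads, against 9.80, 9.63 and 9.62 in the WT-labelled heads. The KO-labelled heads nearly coincided and lay below all WT-labelled heads, of which WT 1 was far above the others. The means were 9.53 ± 0.01 in the KO-labelled heads, against 9.68 ± 0.10 in those labelled WT (n = 3 each, SD; 0.90 times, SE 0.06, limma adjusted p = 0.773). Without WT 1 the Med21 difference was −0.0928 with an unadjusted p of 0.103 in limma, in place of −0.15 and 0.0292. That p of Med21 was also above 0.05 without KO 1 (0.0562), KO 2 (0.0702) or KO 3 (0.0585) and with median centring (0.0543). Med19, on chromosome 2, differed by −0.07 without overlap, and Med7, the hinge partner, by −0.02. Med1, which binds nuclear receptors, differed by +0.04 (−0.06 to 0.13), and Med26, which recruits elongation factors, by +0.04 (−0.11 to 0.18).

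In the tail, where many activators bind, 5 of 5 genes were lower but by at most 0.05, with Med24 at −0.05, Med25 at −0.03 and Med15 at −0.02. Without WT 1, 2 of 5 were lower and the median of −0.03 was +0.007. Med14, the backbone that joins the modules, had 11.46 ± 0.04 in the KO-labelled heads, against 11.42 ± 0.01 in those labelled WT (n = 3 each, SD). The kinase module, which blocks the contact of Mediator with the polymerase, had Med12 and Med13 higher (+0.04 and +0.07) and their paralogs Med12l and Med13l lower (−0.13 and −0.03). Med13 read 11.31, 11.28 and 11.28 in the KO-labelled heads, against 11.15, 11.27 and 11.24 in the WT-labelled heads. The groups were separate, although KO 2 and WT 2 were nearly equal. Med12l read 8.66, 8.59 and 8.52 in the KO-labelled heads, against 8.53, 8.81 and 8.84 in the WT-labelled heads, and without WT 1 its difference was −0.235 (limma unadjusted p = 0.00534, adjusted p = 0.582).

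**Figure D3:**
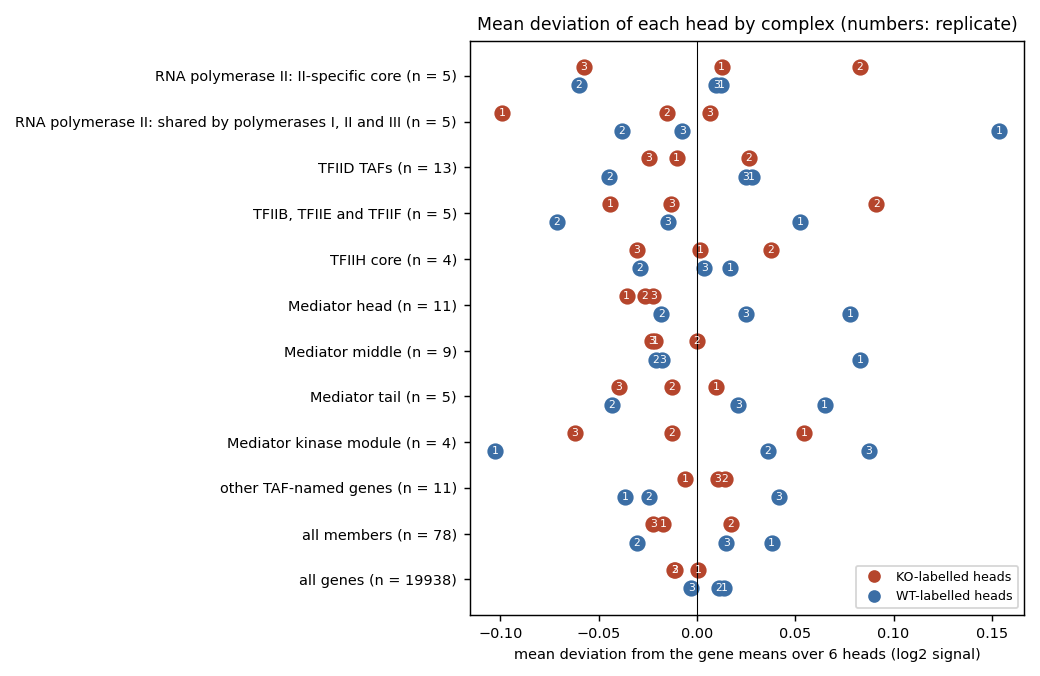
Mean deviation of each head from the gene means over 6 heads (log2 signal, x axis), averaged over the genes of each complex, over all members and over all genes; numbers are replicates. WT 1 lies at +0.15 for the shared polymerase subunits and at +0.08 for the Mediator head and middle modules, and at −0.10 for the kinase module.

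Single heads moved many members at a time. WT 1 held the highest of the 6 signals in 33 of 78 members (42.3%), against 26.7% of all genes. WT 2 held the lowest in 22 members (28.2%), against 13.9% of all genes. Averaged over the members, the heads deviated from the gene means by −0.02, +0.02 and −0.02 in KO 1, KO 2 and KO 3, against +0.04, −0.03 and +0.01 in WT 1, WT 2 and WT 3. The WT-labelled heads thus spanned the range of the KO-labelled heads, and the group difference over all members was smaller than the spread among heads.

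**Figure D4:**
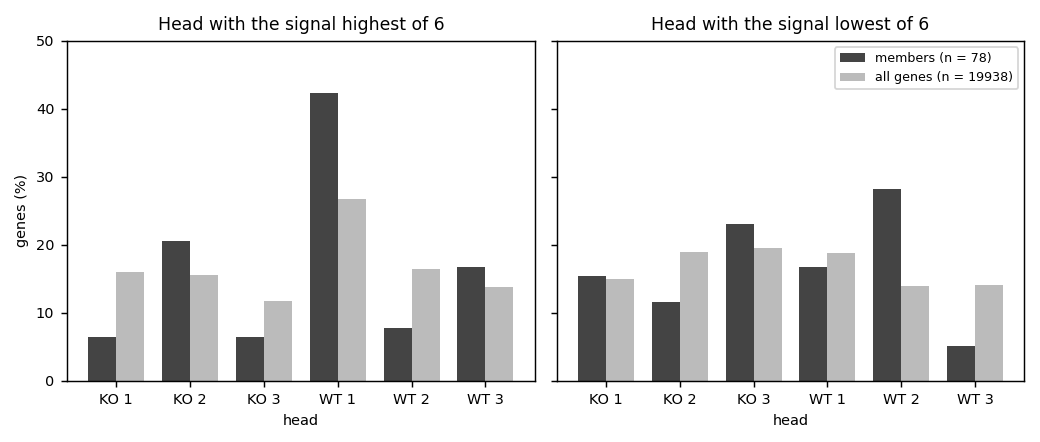
Share of genes (%, y axis) for which each head had the highest (left panel) or the lowest (right panel) of the 6 signals, for the 78 members and for all 19938 genes. Among members WT 1 is the highest in 42.3% and WT 2 the lowest in 28.2%.

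Members on the chromosome of Tasp1 and on the X chromosome were examined separately, since DNA linked to the knockout allele can differ between the groups and sex did. Med19, Med22, Med27, Taf3, Taf4 and Tbpl2 lie on chromosome 2, and 6 of 6 were lower (median −0.05, from −0.13 to −0.02). Lower were 4 of 6 without WT 3 and 5 of 6 without WT 2. Of all 1732 measured genes of that chromosome 58.1% were lower, and of all 78 members 65.4%. Whether DNA linked to the knockout allele has a part in these differences was not tested. On the X chromosome Taf1, Med12 and Med14 were higher and Taf9b and Taf7l lower, from −0.05 to +0.05. Without WT 2, the head with the high Xist signal, the same X-linked genes kept their signs and ran from −0.08 to +0.04.

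For 71 of the 78 members the chosen probe set is numbered among probe sets of the gene's own chromosome, as are 96.3% of all single-symbol probe sets. Polr2l (gene on chromosome 7) was the exception among the 5 members with the smallest p-values: 20 of the 20 probe sets numbered next to it belong to chromosome 2. The others were Polr2c, Polr2h, Taf9, Taf10, Taf13 and Taf1a. The sources used here do not give their positions, and signal from a near-identical copy of the gene cannot be told apart from that of the gene. In another fit each gene was represented by a probe set numbered within its own chromosome, where it had one. There Polr2l differed by −0.123 (limma unadjusted p = 0.0239, adjusted p = 0.767). Polr2c was represented there by its dimmer probe set, 10574242, and differed by −0.14 without overlap, in place of −0.05. At a limma unadjusted p under 0.05, 2 members were higher and 4 lower. The 5 shared polymerase subunit genes were all lower in that fit, with a median of −0.0769.

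**Figure D5:**
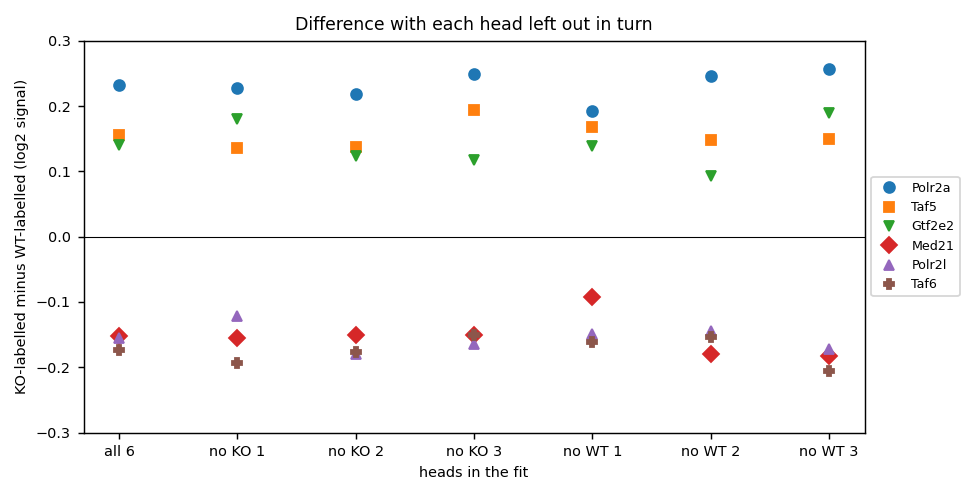
Difference between KO-labelled and WT-labelled heads (log2 signal, y axis) for 6 members in the fit of all 6 heads and with each head left out in turn (x axis). Polr2a stays between 0.193 and 0.256, and Med21 is at −0.0928 without WT 1.

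Partner genes that act with these complexes were read from a list of 82 measured genes. At an unadjusted p under 0.05 there were 3 higher and 3 lower, against 2.16% higher and 4.12% lower among all genes, and 0 passed the adjusted threshold (limma). Gtf2a1, which encodes the TFIIA precursor that Taspase1 cleaves, averaged 10.85 ± 0.10 in the KO-labelled heads, against 10.48 ± 0.03 in those labelled WT, with no overlap (n = 3 each, SD; difference +0.37, SE 0.05, limma adjusted p = 0.09). Gtf2a2, the small TFIIA subunit's gene, differed by +0.05 (−0.08 to 0.19), and Gtf2a1l by +0.03. Among the 23 genes of pausing and elongation, the elongation factor gene Rtf1, on chromosome 2, read 10.37, 10.59 and 10.45 in the KO-labelled heads, against 10.27, 10.23 and 10.17 in the WT-labelled heads (+0.24, SE 0.06, limma adjusted p = 0.397). Ell2, another elongation factor gene, differed by −0.17. The enzymes that complete TFIIH (Ercc2, Ercc3, Cdk7, Ccnh, Mnat1) and the Mediator kinase (Cdk8, Cdk19, Ccnc) ran from −0.02 to +0.10 with 0 of 8 at an unadjusted p under 0.05.

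The subunits that belong to polymerases I and III but not to polymerase II were measured by 17 genes, 7 higher and 10 lower, with a median of −0.007. Crcp, a polymerase III subunit gene, was the single one at an unadjusted p under 0.05 (−0.15, limma adjusted p = 0.78). In SAGA, 5 were higher and 7 lower, and the acetyltransferase gene Kat2a had a difference of +0.11 (limma adjusted p = 0.788). Ctdspl, a gene related to the phosphatases of the polymerase's C-terminal repeats, differed by −0.16 (limma adjusted p = 0.78), in a list of polymerase phosphatases and assembly factors with 4 higher and 8 lower. The TBP cofactors had 1 higher and 3 lower, and the genes of TFIIIB, the polymerase III factor that holds TBP, 3 higher and 0 lower, with 0 of both lists at an unadjusted p under 0.05.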

How the data were processed

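RNA from 3 KO-labelled and 3 WT-labelled embryo heads was read on 1 array each. The deposited values are log2 signals per probe set, from 2.73 to 14.4, with array medians from 7.35 to 7.45. The authors' scaling was kept. Per the submitters' processing notes, Affymetrix Expression Console and MAS5 were used; which step each did, the summarisation and the genome build are not given in the sources used here. Of 35556 probe sets, 21789 had 1 gene symbol in the platform annotation, 1621 had more than 1, and the 12146 that it does not list stay unnamed. The gene IDs of 21698 matched the table of assembly GRCm38.p6, which served for chromosomes and promoters, with 0 symbols changed.

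Groups were compared with limma 3.58.1 in R 4.3.3 (lmFit, two-sided eBayes with its trend option, Benjamini-Hochberg over all 19938 genes), with no brightness filter. The procedure was tested on simulated data in which genes varied independently. Those data held no shifts shared by the genes of a head, so they do not show how such shifts affect the results. The number of arrays limits the precision. The members and lists were chosen with earlier results of these data known. Genes were named by a rule: members at an unadjusted p under 0.05 and the nearest 3 outside, the 2 smallest p-values, the brightest and the dimmest in each complex, Polr2a, Taf5, Taf6 and the TBP family, and the Gtf2a genes and partners at an unadjusted p under 0.05. Others were named after their values were seen, to spell out counts, paralogs and modules. Alternatives were other scalings, offsets, filters, probe set choices, variance models, array weights, a replicate block and each head left out. The choice of probe sets by their numbering was added after seeing the data. Heads are numbered 1 to 3 within each group by the labels, which say nothing of pairs.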

Additional observations from a re-analysis of the deposited data

How the results depend on the processing

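In each of the alternatives run, 0 members passed an adjusted p of 0.05 in limma. Genes passing over the whole table, 2 in the reported fit, numbered 0 with quantile normalization, with 1 or 64 added on the linear scale, without the dimmest 40% of probe sets or with no mean-variance trend, 4 with median centring, 5 with array quality weights, 1 with the replicate block, and 0 to 11 with a head left out. Members higher at an unadjusted p under 0.05 numbered 1 with the replicate block, in place of 2, since Taf5 had a p of 0.0546 there. They numbered 3 with quantile normalization, median centring, 64 added, probe sets averaged per gene and array quality weights, where Gtf2e2 joined them, and members lower numbered 4 with quantile normalization. Deviations from the group means correlated at −0.111, −0.141 and −0.27 between heads with the same replicate number. Between heads of different numbers they correlated at −0.123 to 0.277. With 3 heads per group, each centred on the group mean, these values cannot decide whether the heads were paired. With a head left out, 1 to 3 members were higher, and 13 to 21 members had groups that did not overlap, as fewer heads overlap less often. The median of all members ran from −0.0434 to 0.00698, of the Mediator head from −0.107 to −0.0432 and of the TFIID TAFs from −0.0368 to 0.0122. Of the medians by complex, those of the Mediator head and the TBP family, and the difference of Med14, kept their sign in each alternative run, and each of the other 8 medians changed sign in at least 1. Median centring shifted the median of all genes by 0.021.

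Members with differences near 0 changed sign without passing the threshold. Polr2f was at 0.0281 with quantile normalization, 0.0202 with median centring and 0.0166 with array weights. Gtf2e1 was at 0.0172 and 0.0158, and Gtf2h5 at 0.00205 and 0.00666, with median centring and array weights. Taf7l was at 0.0108 and Tbpl1 at 0.000117 with median centring. With a head left out the ranges were −0.0555 to 0.0407 (Polr2f), −0.0557 to 0.0773 (Gtf2e1), −0.0551 to 0.0297 (Gtf2h5), −0.0613 to 0.0655 (Taf7l), −0.053 to 0.00958 (Tbpl1), −0.0512 to 0.00227 (Tbpl2), −0.0262 to 0.0916 (Gtf2h3), −0.0699 to 0.0148 (Med15), −0.0842 to 0.0171 (Med24), −0.0706 to 0.0041 (Med25) and −0.0144 to 0.0748 (Med26). The cause was not tested. Tbpl2, Taf7l and Taf7l2 were among the dimmest 40% of probe sets, so how much of their signal is background is not known here.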
